A study of Macaca fascicularis with 12 samples.

Results

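Scavenger receptors are the cell surface proteins that take up modified lipoproteins, and 10 genes were examined here: the scavenger receptors MSR1, MARCO, CD36, SCARB1, SCARB2, OLR1, STAB1, CD163 and CXCL16, and the macrophage glycoprotein CD68. Every array probe was used whose single gene symbol in the platform annotation is a member, which gave 12 of the 53877 tested probes and covered 9 of the 10 genes, out of 18160 distinct symbols on the array. SCARB2 has no probe named for it alone in that annotation, so it has no value here. MSR1, STAB1 and CXCL16 have 2 probes each and the other 6 genes have 1.

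The samples were iliac arteries of 12 female cynomolgus monkeys (Macaca fascicularis) older than 20 years, with 1 array per animal. All animals, including those with the least plaque, had eaten a high fat diet for 8 years and had been without ovaries for 4 years, and none received a treatment. Plaque area was 0 to 0.113 mm2 in the small group (n = 4, of which 2 had no plaque), 0.30 to 0.542 mm2 in the medium group (n = 5) and 0.61 to 1.003 mm2 in the large group (n = 3). The pieces were whole artery wall, so the groups are arteries with that much plaque and not plaque tissue alone, and in such tissue fewer cells of a type and less RNA per cell cannot be told apart.

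Macrophages in the artery wall bind oxidised or acetylated low density lipoprotein through scavenger receptors, and because this uptake is not shut off by the cell's own cholesterol, as the low density lipoprotein receptor is, the cells fill with cholesterol ester and become foam cells. The receptors are grouped in classes by structure rather than by common descent. Class A (MSR1, MARCO) has a collagen-like stalk, class B (CD36, SCARB1, SCARB2) crosses the membrane at both ends, and CD68, OLR1, CXCL16, STAB1 and CD163 belong to further classes. Several are not restricted to macrophages, since endothelium also carries CD36, SCARB1, OLR1 and STAB1, and adipocytes and platelets carry CD36.

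Values are deposited probe intensities, scaled to an array median close to 1, and tests used their log2. Because the probes were designed on human transcripts, differences were taken between animals for the same probe, and where a probe is called bright or dim its place among all probes describes the signal and not the amount of RNA. The arrays had medians of 1.004 to 1.008 and between 53831 and 53866 values each. Of the markers of the labelled tissue, the smooth muscle gene MYH11 read between 286.9 and 770.5 and the endothelial gene PECAM1 between 19.8 and 30.3. Others were dim, and the smooth muscle gene CNN1 read 0.812 to 2.28 in small and 0.343 to 1.00 in medium and large. Among endothelial genes VWF read 0.98 to 1.32 and 0.81 to 1.12, and KDR 0.248 to 0.434 and 0.0594 to 0.39. The animal numbers of small replicate 4 and medium replicate 5 stand well apart from the other 10. The labels name no batch for them, so the counts of called probes below are also given without both.

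CD36, a receptor for oxidised lipoprotein, and CD163, the haemoglobin receptor, rose in arteries with medium and with large plaque, by 5.17-fold to 7.31-fold, and OLR1 rose 3.73-fold in medium. The bright MSR1 probe was above all small arteries in 7 of the 8 with medium or large plaque and below them in the other, and it did not pass. MARCO and CD68 had lower group means in medium and in large than in small, and neither passed the test. STAB1, SCARB1 and CXCL16 did not pass on any probe.

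**Figure D1:**
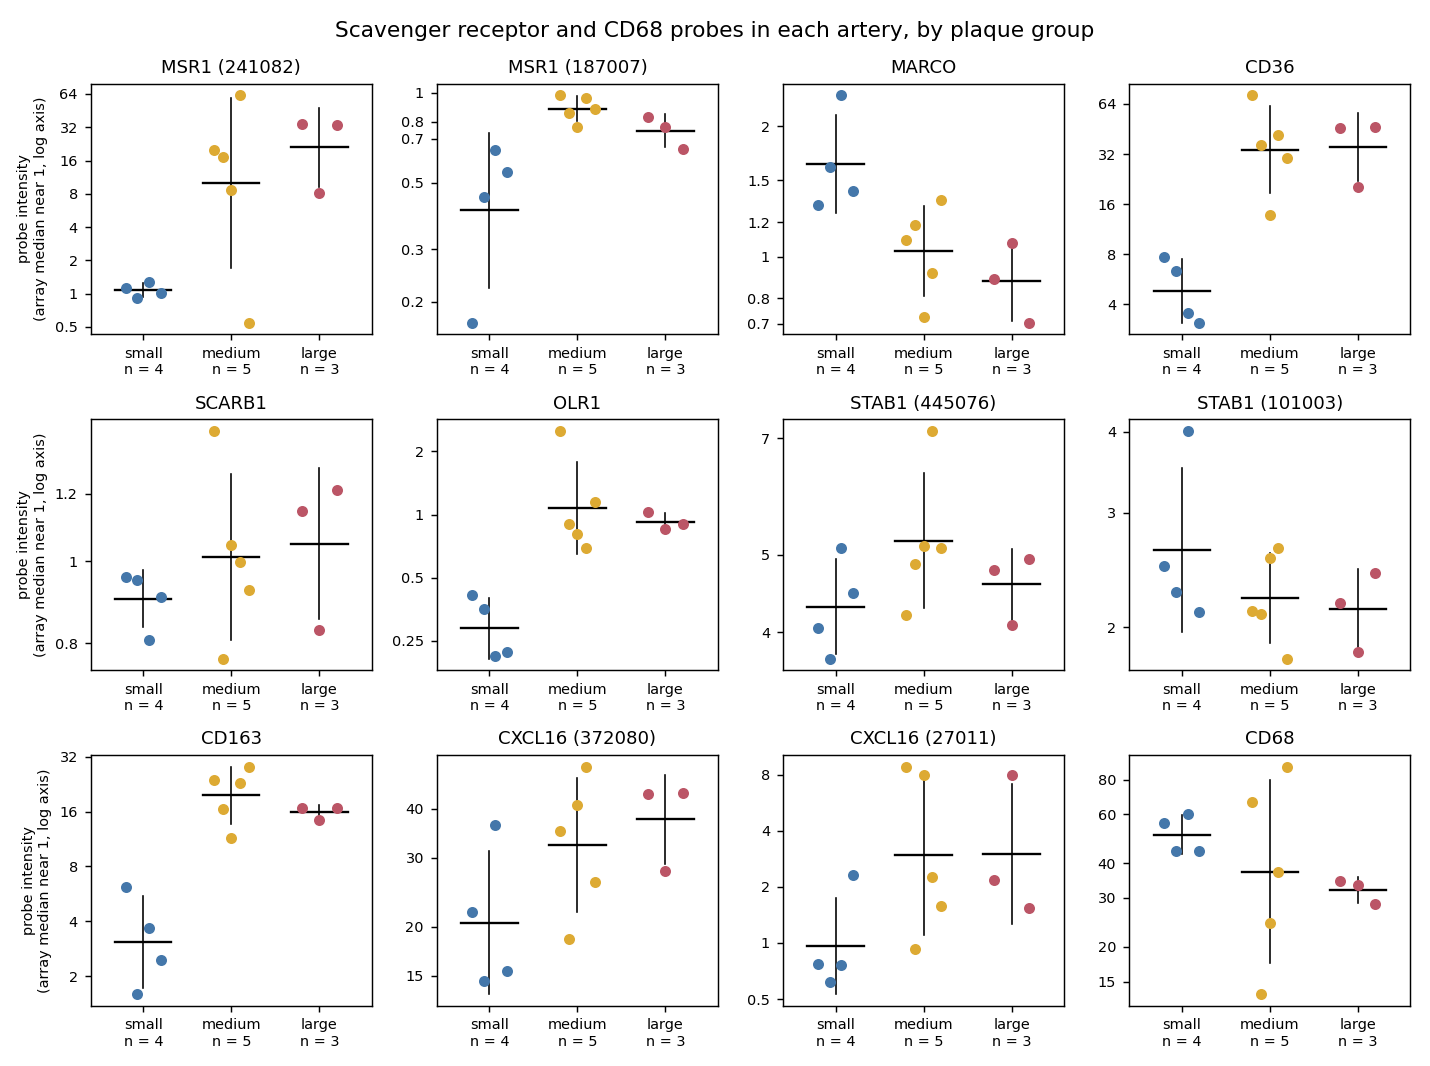
Intensity of the 12 probes (log axis, array median near 1) in each of 12 arteries, by plaque group (small n = 4, medium n = 5, large n = 3); each dot is 1 animal, the bar is the mean of log2 values and the line 1 SD either way. CD36, CD163, OLR1 and the dim MSR1 probe, 187007, which did not pass, lie wholly above the small group in medium and large. CD68 spans 13.5 to 89.1 in medium and surrounds the small group.

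CD36, the class B receptor for oxidised low density lipoprotein and long chain fatty acids, had intensities of 7.71, 6.33, 3.56 and 3.11 in small replicates 1 to 4. In medium replicates 1 to 5 it stood at 72.4, 36.1, 13.7, 41.5 and 30.4. In large replicates 1 to 3 it stood at 46.2, 20.4 and 46.4. All 8 arteries of medium or large plaque were above the highest small artery. CD36 rose by 2.82 ± 0.45 log2 units (SE, n = 5 and 4; limma adjusted p 0.00678) in medium against small, which is 7.05-fold with a 95% confidence interval of 3.57 to 13.9. In large against small it rose by 2.87 ± 0.51 (n = 3 and 4; adjusted p 0.0221), or 7.31-fold with an interval of 3.36 to 15.9. The rise in medium passed under all 24 alternatives. The rise in large passed under 18 of 24 and was lost with the replicate block, without both animals of distant number, without large replicate 1 (2.67, adjusted p 0.127), without large replicate 3 (2.67, adjusted p 0.117), without small replicate 3 (2.72, adjusted p 0.0501) and without small replicate 4 (2.66, adjusted p 0.0515).

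SCARB1, the other class B receptor with a probe, binds high density lipoprotein and moves cholesterol ester across the membrane. Its probe was dim, close to the median of all probes, and ran from 0.807 to 0.957 in small, from 0.767 to 1.42 in medium and from 0.829 to 1.21 in large. The groups overlapped. The difference was 0.16 ± 0.19 in medium and 0.21 ± 0.22 in large against small (adjusted p 0.706 and 0.681). The intervals of these log2 differences, -0.26 to 0.58 and -0.26 to 0.69, do not reach those of CD36, which start at 1.83 and 1.75. They describe the signal of a dim probe and do not bound the change in transcript.

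CD163, which clears haemoglobin bound to haptoglobin and is restricted to cells of the monocyte line, stood at 6.18, 1.59, 3.70 and 2.47 in small replicates 1 to 4. It was at 23.96, 16.5, 11.5, 22.9 and 28.2 in medium replicates 1 to 5 and at 16.8, 14.4 and 16.7 in large replicates 1 to 3. No artery of medium or large plaque overlapped with the small group, and the 3 large arteries lay closer together (SD 0.13 log2 units) than the 4 small ones (SD 0.83). It rose by 2.68 ± 0.36 in medium (adjusted p 0.00262), or 6.39-fold with an interval of 3.70 to 11.1. It rose by 2.37 ± 0.41 in large (adjusted p 0.0189), or 5.17-fold with an interval of 2.77 to 9.65. The medium call held under all 24 alternatives and the large call under 20, with losses without large replicate 1 (2.33, adjusted p 0.105) and without large replicate 3 (2.34, adjusted p 0.0959), without both animals of distant number (2.26, adjusted p 0.0612) and with only the arrays of large and small (2.37, adjusted p 0.0551).

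OLR1, also called LOX-1, is the lectin-like receptor for oxidised low density lipoprotein of endothelium, smooth muscle and macrophages. Its probe was dim, at 0.412, 0.356, 0.212 and 0.222 in small replicates 1 to 4. It was at 2.503, 0.898, 0.804, 0.692 and 1.15 in medium replicates 1 to 5 and at 1.02, 0.852 and 0.906 in large replicates 1 to 3. Again all 8 were above the highest small artery, with medium replicate 1 highest. OLR1 rose by 1.90 ± 0.35 in medium (adjusted p 0.0134), a 3.73-fold difference with an interval of 2.21 to 6.29. In large the difference was 1.68 ± 0.39 (adjusted p 0.0638), 3.21-fold with an interval of 1.77 to 5.82, which missed the threshold. The medium call was lost under 1 of 24 alternatives, without both animals of distant number (1.75, adjusted p 0.0734), and the large value passed under 5 of 24. On the scale of log2(value + 0.5), which shrinks the changes of dim probes, the differences were 1.01 in medium, which passed, and 0.84 in large, which did not.

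MSR1, the class A receptor for acetylated and oxidised low density lipoprotein, had a bright and a dim probe that the annotation ties to different transcript accessions of the gene. The bright probe, 241082, stood at 1.13, 0.910, 1.28 and 1.007 in small replicates 1 to 4. It reached 19.8, 17.3, 8.66 and 62.6 in medium replicates 1 to 4 and 34.2, 8.10 and 33.4 in large replicates 1 to 3. Medium replicate 5 was at 0.546, below every small artery, although that artery had 0.516 mm2 of plaque and the highest CD163 of all 12. The difference was 3.22 ± 1.05 in medium (adjusted p 0.124) and 4.29 ± 1.19 in large (adjusted p 0.104), the latter a 19.6-fold difference with an interval of 3.25 to 118.

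Without medium replicate 5 the medium difference was 4.27 with an adjusted p of 0.00519. The large difference, which does not use that artery in its means but shares its estimate of the spread, then had an adjusted p of 0.0123. Fitted on the large and small arrays alone it had an adjusted p of 0.0134. Of the 24 alternatives the bright probe passed under only 3 in medium and 4 in large. The medium difference was 2.56 without medium replicate 4 (adjusted p 0.221), and the large difference 3.94 without large replicate 1 (adjusted p 0.324). The low value of medium replicate 5 was not marked as an outlier by the rule used for the flagged results. The dim MSR1 probe, 187007, did not repeat the low value of medium replicate 5, where it read 0.879. It ran from 0.170 to 0.645 in small, from 0.768 to 0.982 in medium and from 0.647 to 0.831 in large, so that all 8 were above the small group, the lowest of them by a narrow margin. Its differences of 1.13 ± 0.32 in medium and 0.88 ± 0.36 in large did not pass (adjusted p 0.0804 and 0.258). In medium this probe passed under 2 of 24 alternatives, among them without small replicate 3 (1.35).

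MARCO, the other class A receptor, binds bacteria and particles and is best known from macrophages of the lung, lymph node and splenic marginal zone. Its probe lay near the median of all probes, at 1.31, 1.61, 2.36 and 1.42 in small replicates 1 to 4. It read 1.09, 1.18, 0.725, 0.917 and 1.35 in medium replicates 1 to 5 and 0.888, 1.08 and 0.703 in large replicates 1 to 3. Of the 8 arteries with medium or large plaque 7 were below the lowest small artery, the exception being medium replicate 5. The difference was -0.66 ± 0.23 in medium (adjusted p 0.153) and -0.90 ± 0.27 in large (adjusted p 0.124). The intervals of the fold, 0.444 to 0.897 in medium and 0.360 to 0.800 in large, lie below 1. Neither value passed over all probes, nor under any of 24 alternatives. There the adjusted p ran from 0.108 to 0.262 in medium and from 0.0777 to 0.342 in large. Such intervals describe the signal of this probe and do not bound the change in transcript.

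**Figure D2:**
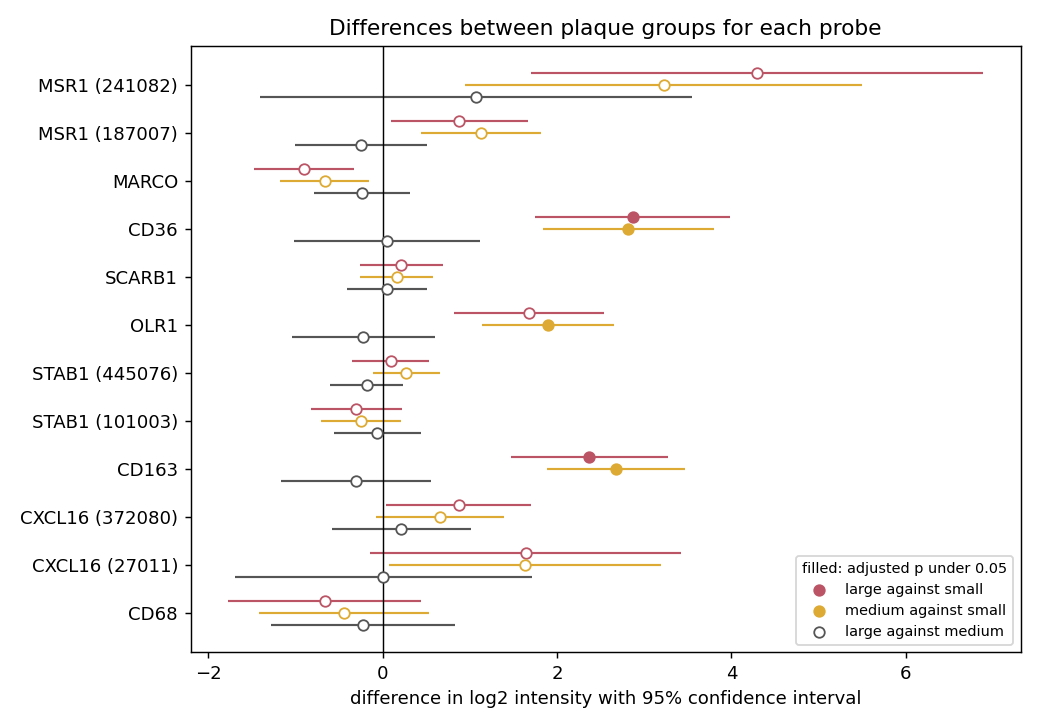
Difference in log2 intensity (horizontal axis) with its 95% confidence interval for each of the 12 probes in large against small, medium against small and large against medium; filled points have an adjusted p under 0.05. CD36 and CD163 are filled in both comparisons with small, OLR1 in medium against small, and no point is filled in large against medium.

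CD68, a heavily glycosylated lysosomal membrane protein of the LAMP family, is the usual histological stain for macrophages and is classed as a class D scavenger receptor. Its single probe was brighter than 96.9% of probes on average. It stood at 55.7, 44.5, 60.4 and 44.1 in small replicates 1 to 4, at 66.6, 13.5, 24.4, 37.3 and 89.1 in medium replicates 1 to 5, and at 34.7, 33.4 and 28.5 in large replicates 1 to 3. The large arteries were all below the small ones. The medium arteries lay on both sides of the small group, with 2 above it and 3 below it, and spanned 6.60-fold, against 1.37-fold within small and 1.22-fold within large.

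The CD68 difference was -0.44 ± 0.45 in medium against small (adjusted p 0.648) and -0.66 ± 0.51 in large against small (adjusted p 0.565). The interval of the fold was 0.376 to 1.44 in medium and 0.294 to 1.36 in large. Rises of the size of CD36 or CD163 in the signal of this probe lie outside both. CD68 did not pass under any of 24 alternatives in either comparison, and its sign was negative in each. The medium value rests on single arteries, since it was -0.07 without medium replicate 2 and -0.75 without medium replicate 5.

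CD68 was set beside 11 measured macrophage markers (CD14, CSF1R, TYROBP, LAPTM5, LYZ, ITGAX, ITGAM, CD86, C1QA, C1QB and MS4A7). Their summed intensity was 29.3 to 80.5 in small, 278.2 to 536.6 in medium and 287.2 to 439.6 in large. Of the 11, 9 rose in medium and 8 in large against small, with a median difference of 2.71 and 2.80, and none fell, beside 1.97% and 0.948% of all probes that rose. ITGAM, at 0.82 and 0.07, and C1QB, at -0.29 and -0.11, passed in neither, and CSF1R passed in medium only. Of further dimmer probes, that of MS4A7 differed by -0.03 and 0.03 without passing, while that of CSF1R rose by 2.90 and 2.58. LYZ reached 248.2, TYROBP 114.4 and CSF1R 108.5, so these bright markers weigh most in the sum. In medium replicates 1 to 5 the markers summed to 536.6, 278.2, 339.1, 417.5 and 401.9, so that within medium the arteries with the lower sums, replicates 2 and 3, also had the lower CD68. The highest CD68 of medium, 89.1 in replicate 5, was not at the highest sum, which was in replicate 1. In small the sums were 80.5, 29.3, 58.1 and 54.0, and in large 402.5, 287.2 and 439.6, with CD68 in large below that in small. Small replicate 3 had the highest CD68 of its group but not the highest sum. Large replicate 3 had the highest sum of its group and the lowest CD68, 28.5. The summed level of 6 smooth muscle markers went the other way, at 1398 to 2202 in small, 664.5 to 1233 in medium and 857.1 to 1304 in large. Of the 6, 2 fell in medium and 1 in large and none rose, beside 1.17% and 0.197% of all probes that fell. Of the called genes, MYLK had a dimmer probe that differed by 0.28 in medium and 0.73 in large. That of SMTN, a gene called in medium only, differed by 0.005 and -0.20. None of these values passed. The part of either shift in the values of the 12 probes was not tested.

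Markers of other cells that carry some of these receptors were read as well. On the brightest probe of each gene none of 7 endothelial markers was called in either comparison with small, and their sum was 36.3 to 47.0 in small, 30.5 to 41.3 in medium and 33.2 to 44.5 in large. That sum follows mainly PECAM1, at 19.8 to 30.3, and TIE1, at 4.91 to 14.2, the brightest of the 7. KDR was at the floor on 4 arrays. A dim further probe of PECAM1 rose by 1.21 in medium and 1.25 in large (adjusted p 0.0184 and 0.0486), which its other 2 probes did not. None of 5 platelet markers was called on its brightest probe, with sums of 4.63 to 6.57, 5.17 to 6.80 and 4.80 to 5.62, while a second probe of GP9 fell by 0.62 in medium (adjusted p 0.0277). Of 5 adipocyte markers 1 rose in each comparison, the lipase gene LPL, which foam cells also express, from 0.616 to 1.15 in small to 2.27 to 15.1 in the other 8 arteries, and the 5 summed to 2.70 to 3.38, 4.85 to 17.5 and 6.73 to 11.8. The fat cell genes ADIPOQ, at 0.114 to 0.294 on all 12 arrays, and LEP, with 5 arrays at the floor of 0.111, were near the bottom of the scale, and PLIN1, which coats fat droplets, read 1.296 to 1.892 in small and 1.17 to 1.95 in the other 8. Of 4 T cell markers 2 rose in medium and none in large, with sums of 6.20 to 22.5, 18.6 to 38.7 and 16.5 to 27.6. Beside these counts, 1.97% of all probes rose and 1.17% fell in medium, and 0.948% and 0.197% in large. What part these cells have in the values of the 12 probes was not tested.

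**Figure D3:**
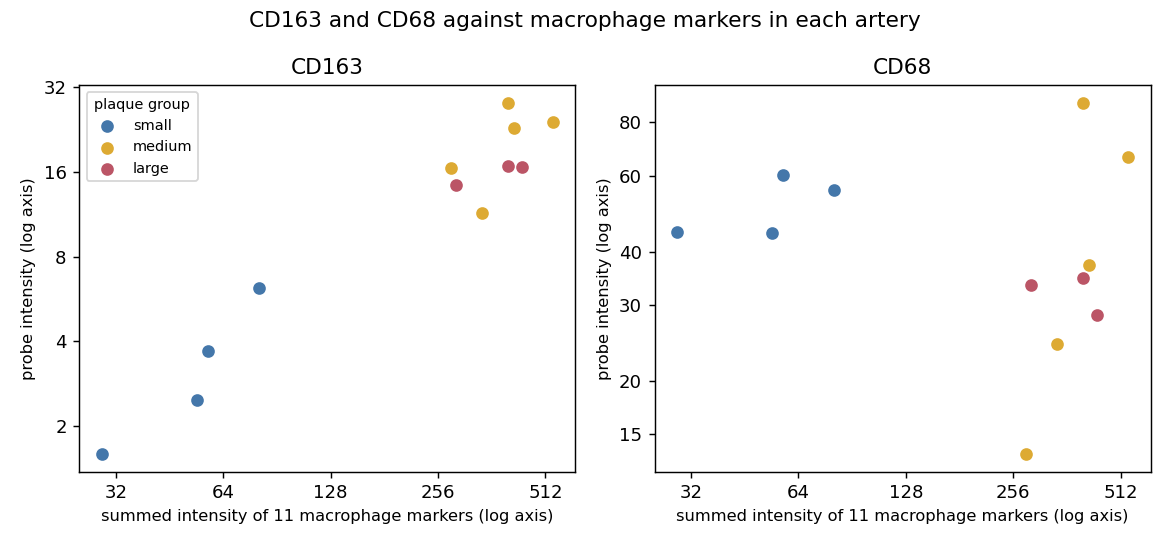
Intensity of CD163 (left) and CD68 (right) against the summed intensity of 11 macrophage markers in the same artery (both axes log), coloured by plaque group, 1 dot per animal. Marker sums are 29.3 to 80.5 in the small group and 278.2 to 536.6 in the others; CD163 is higher in all of the latter, while CD68 in 6 of those 8 arteries is below all small arteries.

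STAB1, stabilin 1, is a large receptor of sinusoidal endothelium and of tissue macrophages that takes up acetylated lipoprotein and matrix fragments. Its brighter probe, 445076, ran from 3.71 to 5.10 in small, from 4.21 to 7.15 in medium and from 4.09 to 4.95 in large. The groups overlapped, with differences of 0.27 ± 0.18 in medium and 0.09 ± 0.20 in large (adjusted p 0.448 and 0.865). The other probe, 101003, ran from 2.12 to 4.01 in small, 1.79 to 2.65 in medium and 1.83 to 2.43 in large, with differences of -0.24 ± 0.21 and -0.30 ± 0.24. The probes therefore had opposite signs, and neither passed. The intervals of the brighter probe, 0.926 to 1.58 and 0.787 to 1.44 in fold, do not reach rises of the size of CD163. They describe the signal of this probe and do not bound the change in transcript.

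CXCL16 is both a membrane-bound scavenger receptor for oxidised lipoprotein and, once shed by ADAM10 or ADAM17, a chemokine for T cells that carry CXCR6. Its bright probe, 372080, ran from 14.5 to 36.3 in small, from 18.6 to 51.1 in medium and from 27.7 to 43.7 in large. Small replicate 3, at 36.3, stood within the range of the other groups. The difference was 0.66 ± 0.34 in medium and 0.87 ± 0.38 in large (adjusted p 0.327 and 0.29). The dim probe, 27011, differed by 1.63 ± 0.72 and 1.64 ± 0.82 (adjusted p 0.252 and 0.351), with 3 of the 8 arteries of medium or large plaque, at 8.82, 7.95 and 7.97, far above the others, which ran from 0.930 to 2.27. These 3 were not the 3 highest on the bright probe.

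Counted over the members, 3 of the 12 probes rose in medium against small, CD36, CD163 and OLR1, and none fell, beside 1.97% of all probes that rose and 1.17% that fell. In large against small 2 rose, CD36 and CD163, beside 0.948% of all probes, and none fell, beside 0.197%. Without both animals of distant number the counts were 3 in medium, namely CD36, CD163 and the bright MSR1 probe, and 1 in large, the bright MSR1 probe alone, with CD36 at an adjusted p of 0.0745 and CD163 at 0.0612. The median difference of the 12 probes was 0.89 in medium and 0.88 in large, against -0.09 and -0.10 over all probes. All arteries of the group lay above small for 4 probes in medium (3.94% of all probes do so) and 5 in large (5.99%), and below small for none in medium (4.34%) and for MARCO and CD68 in large (8.52%). The 2 comparisons share the small arteries and are not independent of each other. The large count rests on few animals, since no member was called without large replicate 1 or without large replicate 3, where the calls over all probes fell from 617 to 132 and 112.

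Large was then compared with medium, where no member and no probe of the array passed by limma (0% of all probes; lowest adjusted p 0.0628, with 2713 probes at an unadjusted p under 0.05). None of the 12 had an unadjusted p under 0.05. CD36 differed by 0.05 ± 0.49 (SE, n = 3 and 5), with an interval of the fold from 0.494 to 2.18. CD163 differed by -0.31 ± 0.40 (0.446 to 1.47), OLR1 by -0.22 ± 0.38 (0.487 to 1.52) and MARCO by -0.23 ± 0.25 (0.580 to 1.25). For the bright MSR1 probe the value was 1.07 ± 1.14, with an interval of 0.376 to 11.7. CD68 differed by -0.22 ± 0.49 (0.413 to 1.78).

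Plaque area itself gave no call among the members, beside 0.483% of all probes with a positive and 0.1% with a negative slope. The steepest slopes were those of the bright MSR1 probe at 5.29 ± 1.44 log2 units per mm2 (SE, n = 12; adjusted p 0.0998), CD36 at 3.78 ± 0.78 (adjusted p 0.0517) and CD163 at 3.16 ± 0.76 (adjusted p 0.0721). OLR1 had 2.14 ± 0.64, the bright CXCL16 probe 1.29 ± 0.40 and MARCO -1.11 ± 0.32 (adjusted p 0.129, 0.142 and 0.113). CD68 had -0.46 ± 0.61. On the square root of plaque area, which weighs the steps between small plaques more, CD36, CD163 and OLR1 passed (adjusted p 0.00627, 0.00354 and 0.035).

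Within the 8 arteries of medium and large plaque alone no slope passed for any member or any probe (0%; lowest adjusted p 0.494, with 2962 probes at an unadjusted p under 0.05). The members ran from -0.88 ± 1.79 for the dim CXCL16 probe to 2.71 ± 2.84 for the bright MSR1 probe. CD36 had 0.93 ± 1.04 per mm2 with an interval of -1.44 to 3.30, and MARCO -0.59 ± 0.50. The bright CXCL16 probe, at 1.09 ± 0.64, had the lowest unadjusted p of the 12, 0.121. Within the small group CD163 read 1.59 and 2.47 in the 2 arteries without plaque, 3.70 at 0.041 mm2 and 6.18 at 0.113 mm2, while the summed macrophage markers read 29.3, 54.0, 58.1 and 80.5 in the same order. CD36 did not keep that order, with 6.33 and 3.11 without plaque, 3.56 and 7.71.

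**Figure D4:**
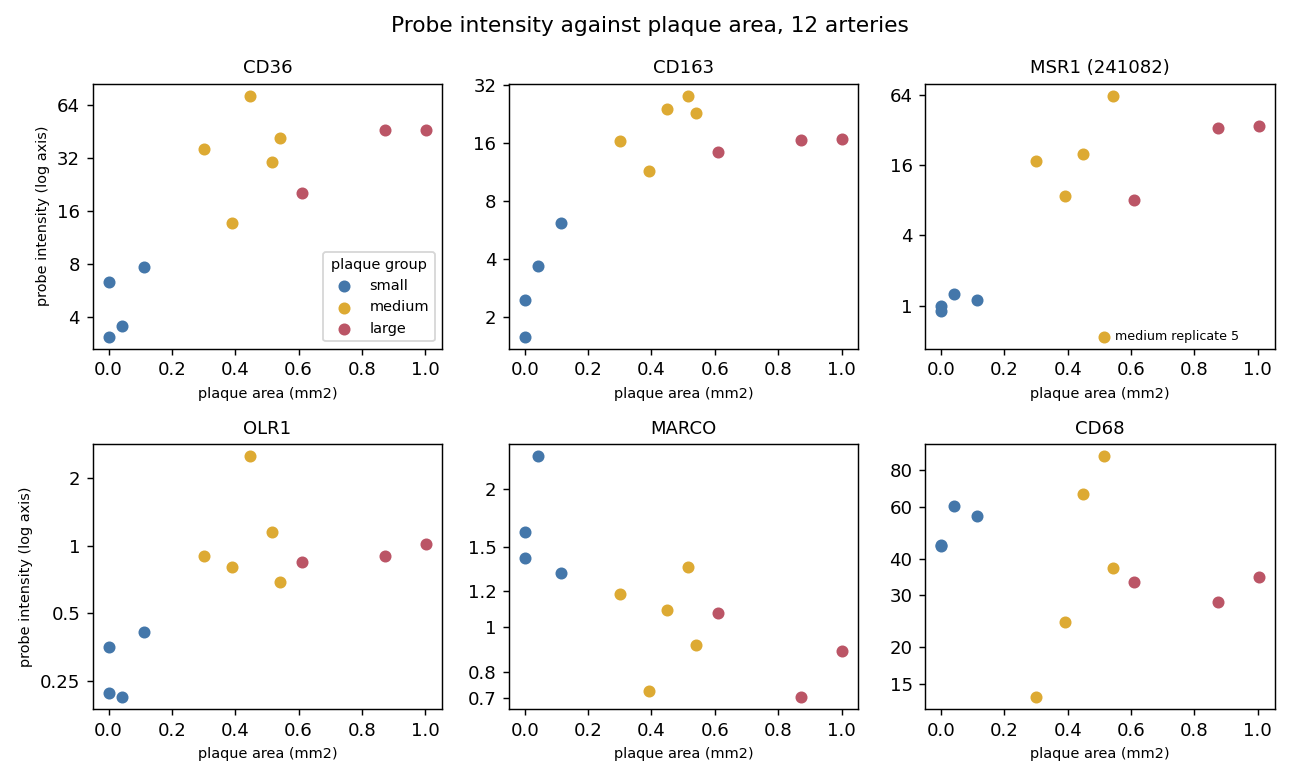
Intensity (log axis) of CD36, CD163, the bright MSR1 probe, OLR1, MARCO and CD68 against plaque area in mm2, 1 dot per artery, coloured by plaque group. CD36, CD163 and OLR1 are higher from 0.30 mm2 upwards with no further rise that passed a test, and medium replicate 5 lies apart on the MSR1 probe at 0.546.

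For each gene, the probes of other genes most like its brighter probe over the 12 arteries were found among 18687 single-symbol probes above the floor on all arrays, by Pearson's r of log2 intensity. Such an r reflects mostly the step between small and the other groups where there is one, so r of the deviations from group means follows it, and with so many candidates a high r is a description only. CD36 was most like SLC1A3, a glutamate transporter (r 0.982, within groups 0.933), GCLM, a subunit of an enzyme of glutathione synthesis (0.977, 0.905), and PLAUR, the urokinase receptor (0.970, 0.861). CD163 was most like the leukocyte genes LST1 (0.976, 0.834), CD48 (0.972, 0.812) and LAT2 (0.972, 0.800).

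OLR1 went with STPG1 (0.975, 0.914), TNIP3, an inhibitor of NF-kappa B signalling (0.961, 0.879), and TASL, an adaptor of endosomal toll-like receptor signalling (0.960, 0.833). The bright MSR1 probe went with DNASE2B, an acid DNase (0.957, 0.948), CLASP2 (0.936, 0.914) and SULT1C2 (0.915, 0.885). DNASE2B ran from 4.58 to 7.39 in small and from 9.93 to 93.4 in the other 8 arteries. Its lowest value among those 8, like that of CLASP2 and SULT1C2, was in medium replicate 5. The bright MSR1 probe was also lowest there, and these genes were picked for their likeness to it. Their low values in that artery were therefore favoured by the choice and are no independent check of the MSR1 value.

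STAB1 was most like DGAT2, which makes triglyceride (0.963, 0.954), OR52H1 (0.930, 0.942) and DUSP16 (0.922, 0.910), and CXCL16 like CHPF2 (0.953, 0.930), BEST3 (0.939, 0.912) and the metalloproteinase inhibitor TIMP2 (0.938, 0.930). SCARB1 was most like LCP2 (0.913, 0.901), GAS2 (0.900, 0.902) and YEATS2 (0.883, 0.897). MARCO was most like MYOZ3, a muscle protein of the Z-disc (0.935, 0.837), SPINK2 (0.895, 0.717) and CTC1 (0.892, 0.858). CD68 went with TERF1, which binds telomeres (0.872, 0.867), TENM2 (0.822, 0.833) and TMEM184B (0.789, 0.792).

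Other receptors that take up modified lipoproteins, dead cells or microbes were read from a list of 21 genes, 20 of them measured. CD14, the endotoxin co-receptor that also belongs to the macrophage markers, was the sole member to rise, in medium by 2.36 ± 0.53 (adjusted p 0.0345) and in large by 3.29 ± 0.61 (adjusted p 0.0253), from 0.242 to 0.611 in small to 0.884 to 5.81 in medium and 2.25 to 4.48 in large. None fell, and the median difference was 0.15 in medium and 0.10 in large. Over all probes 1.97% rose in medium and 0.948% in large. SCARA5, a class A receptor for ferritin found on fibroblast-like cells, went from 133.7 to 245.4 in small to 35.2 to 104.9 in medium without overlap and 20.4 to 149.5 in large, which overlapped with small, a difference of -1.61 ± 0.50 in medium that did not pass (adjusted p 0.113), nor did -1.99 ± 0.57 in large (adjusted p 0.116). A dim second probe of SCARA5 differed by 0.05 and 0.06. SSC5D at -1.01 and -0.62, SCARF1 at -0.46 and -0.55, and the macrophage lectin CLEC10A at 0.79 and 0.74 did not pass in medium or large.

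Of 18 measured ligands, partners, sheddases and regulators of the members 7 rose in medium and 4 in large, beside 1.97% and 0.948% of all probes, and none fell, with median differences of 0.43 and 0.78. HMOX1, haem oxygenase 1, which degrades the haem that CD163 brings in, rose by 1.99 ± 0.23 in medium and 1.97 ± 0.26 in large (adjusted p 0.000893 and 0.00426), from 0.418 to 0.622 in small to 1.62 to 2.90 in medium and 1.49 to 2.86 in large. TLR4, which signals together with CD36 and TLR6, rose by 2.80 ± 0.36 and 2.45 ± 0.42 on its brighter probe (adjusted p 0.00203 and 0.017), while its dimmer probe differed by -0.26 and -0.28 and did not pass. LYN, a Src family kinase downstream of CD36, rose by 2.62 ± 0.50 and 2.94 ± 0.57 (adjusted p 0.0168 and 0.033).

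NR1H3, the oxysterol receptor LXR alpha, rose in medium by 1.92 ± 0.33 (adjusted p 0.0105) and differed by 1.32 ± 0.38 in large (adjusted p 0.115). ADAM10, a sheddase of CXCL16, rose in medium by 0.92 ± 0.18 (adjusted p 0.0174) and stood at 10.6 to 13.0 in large against 5.25 to 7.56 in small without passing (0.85 ± 0.20, adjusted p 0.067). Its dimmer probe differed by 0.81 and 0.95 and did not pass. The other calls, named after their values were seen, were ADAM17 and TLR6 in medium, by 1.59 ± 0.36 and 1.42 ± 0.28, and PDZK1, the scaffold that holds SCARB1 at the membrane, in large by 1.44 ± 0.30 on a probe near the floor (0.113 to 0.167 in small, 0.315 to 0.379 in large). PPARG, a nuclear receptor that drives CD36, differed by -0.17 and -0.65 on its brighter probe without passing, whereas its dimmer probe, also named after its values were seen, rose by 2.47 in medium and 2.13 in large (adjusted p 0.00136 and 0.0128). CXCR6, the receptor for shed CXCL16, differed by 0.70 and 0.40 and did not pass.

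Lysosomal membrane proteins of the kind of CD68 were read from 5 genes. Of these 2 rose in medium and 1 in large, beside 1.97% and 0.948% of all probes. LAMP1, the main glycoprotein of that membrane, rose by 3.83 ± 0.78 in medium and 4.35 ± 0.88 in large (adjusted p 0.0218 and 0.0395), from 0.108 to 0.874 in small with 1 array below the floor to 2.87 to 23.4 and 3.15 to 19.2. LAMP2 rose in medium by 1.64 ± 0.38 (adjusted p 0.0378) and differed by 1.75 ± 0.43 in large (adjusted p 0.0733) on its brightest probe, and of its other 2 probes 1 rose in medium by 1.56 (adjusted p 0.00816) and 1 differed by 1.26 without passing. CD63, a tetraspanin of late endosomes, lay at 108.8 to 187.8 in small, 188.1 to 266.3 in medium and 173.8 to 289.2 in large, differences of 0.73 ± 0.21 and 0.77 ± 0.24 that did not pass (adjusted p 0.082 and 0.135). LAMP3 at -0.22 and -0.32 and LAMP5 at -0.13 and -0.16 did not pass. CD68 thus had negative differences that did not pass, as did LAMP3 and LAMP5. In the same arteries LAMP1 rose in both comparisons, LAMP2 rose in medium and CD63 was positive in both without passing.

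**Figure D5:**
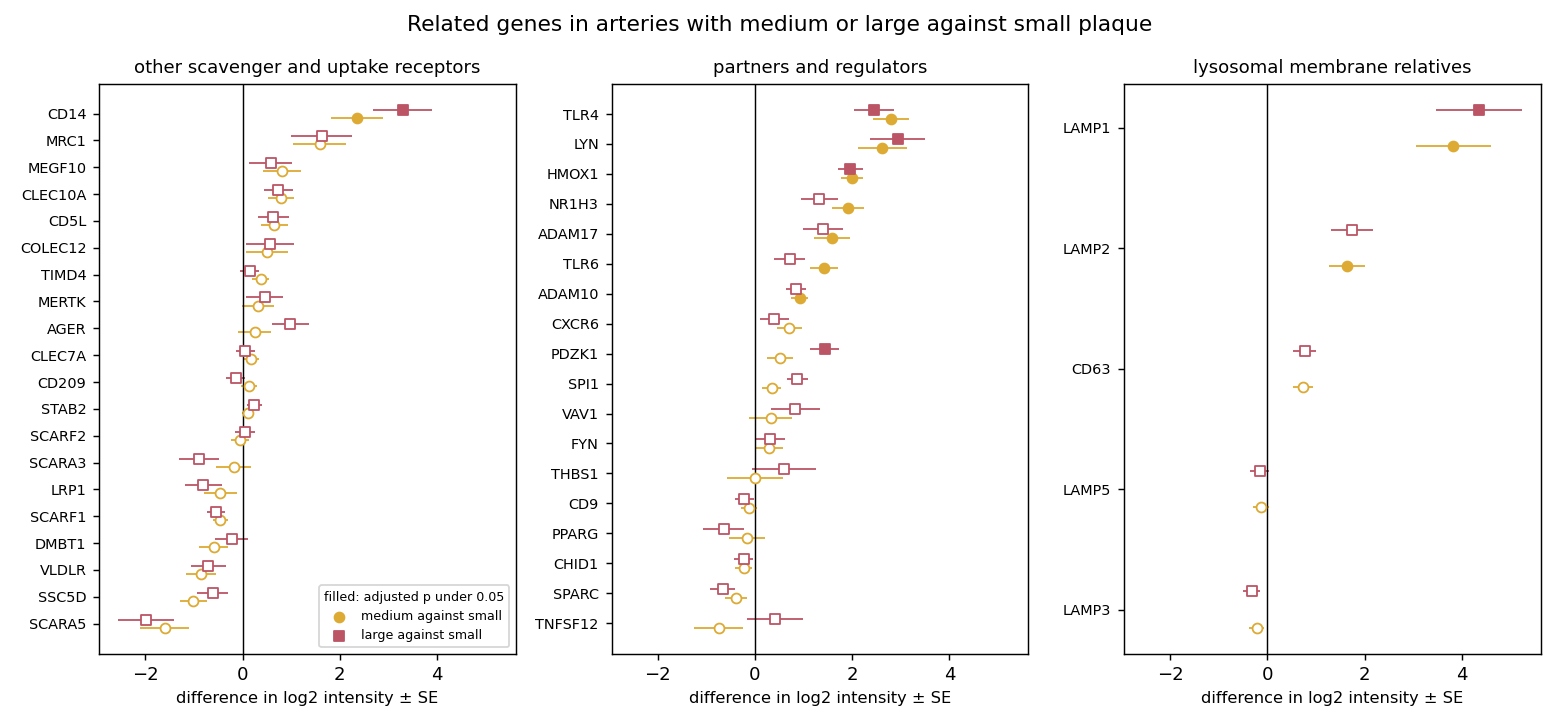
Difference in log2 intensity ± SE (horizontal axis) for 20 other uptake receptors, 18 partners and regulators and 5 lysosomal membrane genes in medium (circles) and large (squares) against small, 1 probe per gene; filled points have an adjusted p under 0.05. CD14 is the only filled receptor, and TLR4, LYN, HMOX1 and LAMP1 are filled in both comparisons.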

How the data were processed

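The authors deposited linear probe intensities of single-colour CodeLink arrays of human probes, brought to array medians near 1, as the values show. Some are below 0, so background had been subtracted. The sources used here name neither the image software nor the background method or scaling formula. Of 54359 probes, 53877 had at least 2 values in every group and were tested. Intensities under 0.111 (the 5th percentile of positive values; 5.45% of values) were raised to it, and log2 was taken. No member probe was at this floor on any array. Gene names came from the platform annotation, which can be old. All 10 symbols occur in the macaque annotation of RefSeq.

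limma version 3.58.1 in R version 4.3.3 (lmFit with 3 group means over all 12 arrays, or plaque area in mm2; eBayes) gave two-sided p-values. They were adjusted over the 53877 probes by Benjamini-Hochberg, and 0.05 was the threshold. Confidence intervals cover 95% for a single probe and are not adjusted. The fits were tested on simulated data. Replicates are separate animals, and their number limits the precision. Members and lists were chosen with earlier results of these data known. Named were all member probes, the 3 most alike genes per member, and of each list of related genes the 5 of smallest p. Where a gene had several probes, the brightest with a value on every array stood for it.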

Additional observations from a re-analysis of the deposited data

Results flagged for a closer look

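In 24 groups of 4 or 5 arteries (12 probes in small and in medium), 1 value stood far from its group: the dim CXCL16 probe, 27011, read 2.31 in small replicate 4, against 0.620 to 0.774 in the other 3 small arteries. The gap was 0.831 of the group's range, against a critical value of 0.829, and chance alone would mark about 1 in 20 such groups. The bright CXCL16 probe read 15.4 in that artery, within the 14.5 to 36.3 of the group.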

How the results depend on the processing

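Every alternative kept the sign of the 12 probes in both comparisons with small and in the slope over 12 arteries. The calls of CD36 and CD163 in medium held under all 24, and large against small was the least stable. Leaving out 1 animal moved its count from 617 probes to between 112 (without large replicate 3) and 1216 (without small replicate 1), and its members called from 2 to between 0 and 3. For medium against small the 1693 probes became 847 (without small replicate 2) to 1568, and the members 3 to 4. The 314 slopes became 0 (without large replicate 3) to 746 (without medium replicate 1) with 0 to 2 members, and large against medium gave 0 to 3 probes. The causes were not tested.

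In large against small the count was 1227 with log2(value + 0.5), 1161 with a trended robust variance, 1254 with array weights, 379 with only the arrays compared, and 316 with 1 member without both animals of distant number. The last setting gave 773 probes in medium and 0 slopes. Large against medium gave 1 probe after quantile normalization and 1 among probes above the floor, 3 with array weights and 4 with only the arrays compared. Slopes numbered 509 with 1 member at a floor of the 10th percentile, 866 with 2 members with log2(value + 0.5), 777 with 1 member with the trended robust variance and 1586 with 3 members on the square root of area, and 1 member passed among probes above the floor.

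Whether animals of the same replicate number belong together was not settled. Deviations from group means of the 10 same-numbered pairs correlated at -0.16 to 0.22, 4 of them over 0.1. Of 11 arteries 6 were closest to one of their own number, and the count to be had by chance was not worked out. With the replicate block 448 probes and 2 members (CD163 and the bright MSR1 probe) were called in large, 866 probes and 4 members in medium, and 0 slopes.

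In large against medium, where none passed, some signs turned. CD36 ran from -0.28 to 0.45, OLR1 from -0.38 to 0.0867 and CD68 from -0.59 to 0.0923 with 1 animal left out. With the replicate block CD36 was at -0.0525 and CD68 at 0.11, and CD68 at 0.0923 without both animals of distant number.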
